A study of Mus musculus with 8 samples.

Results

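The genes described here were those of the estrogen and progesterone receptors Esr1, Esr2, Pgr and Gper1, the estrogen related receptor Esrrg, the receptor coactivator Ncoa1 and the estrogen target Greb1, found by their symbols in the list of each library. They were 7 of the 49585 gene rows in each list, each on 1 row. Bulk polyA RNA sequencing was made of whole pituitary from mice perfused to remove blood, in a study that asked how gene expression in the gland differs with age. The old mice were 18 to 24 months of age (4 libraries) and the young mice 2 to 3 months of age (4 libraries). Both groups were untreated wild-type (WT) mice of the C57BL/6 strain, and the libraries are called here by age and replicate number. Nothing in the sources used here says that every library came from its own mouse. The p-values therefore cover the spread among these libraries, which may be technical. The sources also give neither the sex of these mice nor the stage of the estrous cycle. The Y-linked genes Ddx3y, Eif2s3y, Kdm5d and Uty were listed at 0 in all 8 libraries, and Xist stood at 22.5 to 43.5 FPKM in old and 24.2 to 31.4 FPKM in young pituitary. By these genes, all 8 libraries had the pattern of female tissue.

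Estrogen acts in the pituitary mainly through estrogen receptor alpha, a nuclear receptor that binds DNA at estrogen response elements and recruits coactivators to its target genes. In lactotrophs it drives prolactin synthesis and cell growth, and in gonadotrophs it sets, together with progesterone, how the cells answer gonadotropin-releasing hormone. The progesterone receptor gene is itself a classical estrogen target, so its level follows the estrous cycle in several tissues of rodents.

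Values are FPKM, fragments scaled to exon length and to the total of the library, as deposited by the authors. The old libraries held 16098535 to 19272034 fragments and the young libraries 15042346 to 20429515 fragments, computed back from the FPKM. The gland was recognisable by its hormone genes, with prolactin (Prl) at 75300 to 98280 FPKM in old and 75030 to 85410 FPKM in young pituitary. Growth hormone (Gh) stood at 20300 to 27940 FPKM in old and 57500 to 70110 FPKM in young pituitary (log2 fold change −1.36, adjusted p = 0.0076 from limma). To compare old with young libraries, limma was applied to log2(FPKM + 0.1) of the 23498 genes that averaged 0.1 FPKM or more, with Benjamini-Hochberg adjustment over all of them and a threshold of 0.05. Every fold change below is on this log2 scale, old over young, and understates the change of genes with low FPKM. The median of all genes tested was 0.15, and changes can be read against it. Bulk RNA averages over all cells of the gland, so fewer cells of a type and less RNA per cell cannot be told apart.

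Of the 7 genes, 6 passed the filter on low values, and 0 of these 6 passed the test in either direction. Among all genes tested, 1.86% were called higher in old pituitary (436 genes) and 0.472% lower (111 genes). With FPKM scaled by the median ratio over genes the split was 206 higher and 217 lower, and with upper-quartile scaling it was 213 higher and 210 lower. At an unadjusted p under 0.05 in limma, 1 of the 6 was higher (Esrrg) and 0 were lower, beside 18.0% of all genes tested higher (4222 genes) and 3.79% lower (890 genes). Over the 8 libraries, Esr1 had the highest mean level (13.6 FPKM), followed by Greb1 (10.4 FPKM), Ncoa1 (9.66 FPKM), Gper1 (3.38 FPKM), Pgr (3.34 FPKM), Esrrg (1.49 FPKM) and Esr2 (0.00419 FPKM). The ranges of Esr1 (11.0 to 14.9 FPKM), Greb1 (6.36 to 14.2 FPKM) and Ncoa1 (7.76 to 11.0 FPKM) ran into one another, as did those of Gper1 (2.57 to 4.54 FPKM) and Pgr (2.31 to 5.51 FPKM). Both Gper1 and Pgr lay wholly below the first 3 genes and wholly above Esrrg (0.932 to 2.00 FPKM), and Esrrg lay wholly above Esr2.

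**Figure D1:**
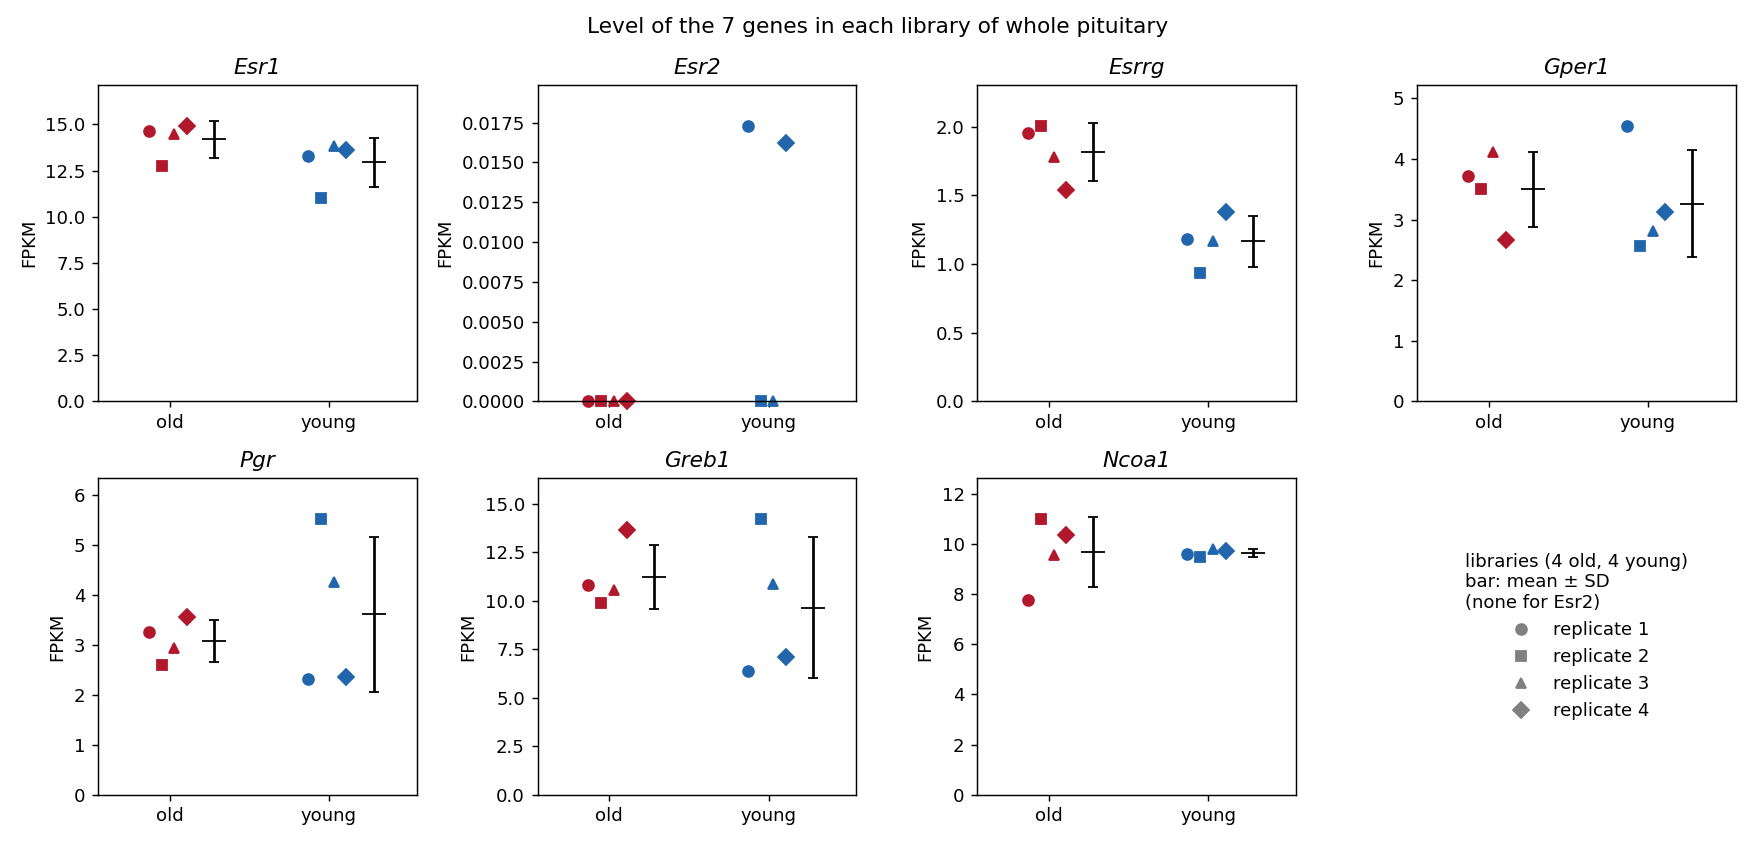
Level of each of the 7 genes (FPKM, linear axis from 0) in the 4 old and 4 young libraries, 1 symbol per library, with the mean and SD as a bar for all genes but Esr2. The old and young points overlap in every panel except that of Esrrg, where the old libraries lie between 1.54 and 2.00 FPKM and the young ones between 0.932 and 1.38 FPKM.

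Esr1, which encodes estrogen receptor alpha, was close to even across the 8 libraries. It lies on chromosome 10 of GRCm38 from 4611593 to 5005614 on the plus strand (ENSMUSG00000019768). The level was 14.6, 12.7, 14.5 and 14.9 FPKM in the old libraries 1 to 4, against 13.3, 11.0, 13.9 and 13.6 FPKM in the young libraries 1 to 4. The groups overlapped, and the lowest library of each age was replicate 2. The mean was 14.2 ± 0.989 FPKM in old and 12.9 ± 1.31 FPKM in young pituitary (SD, n = 4 each). The log2 fold change of 0.14 (standard error 0.11, 95% interval −0.12 to 0.39, adjusted p = 0.51 from limma) lay next to the median of all genes. Between 2263 and 3866 fragments per library stood behind these values, so counting error was small beside the spread of the libraries.

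Esr2, which encodes estrogen receptor beta, was at the limit of detection. The gene spans bases 76120419 to 76177259 of chromosome 12 on the minus strand (ENSMUSG00000021055). No fragment was counted in the 4 old libraries, against 1, 0, 0 and 1 fragments in the young libraries 1 to 4. A count of 0 allows up to 3 fragments per library, which for this gene is 0.0436 to 0.0592 FPKM. Esr2 was therefore not tested, and no difference between the ages was detectable at this depth.

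Pgr, the gene of the nuclear progesterone receptor, differed more among young than among old libraries. It lies on chromosome 9 from 8899833 to 8968611 on the plus strand (ENSMUSG00000031870). The level was 3.25, 2.59, 2.93 and 3.55 FPKM in the old libraries 1 to 4, against 2.31, 5.51, 4.26 and 2.36 FPKM in the young libraries 1 to 4. Young replicates 2 and 3 were above every old library, and young replicates 1 and 4 were below every one. The mean was 3.08 ± 0.415 FPKM in old and 3.61 ± 1.56 FPKM in young pituitary (SD, n = 4 each). The log2 fold change was −0.14 (standard error 0.29, 95% interval −0.81 to 0.54, adjusted p = 0.82 from limma), and it was 0.09 without young replicate 2. The fragments behind the values numbered 447, 409, 482 and 531 in the old and 340, 708, 743 and 369 in the young libraries. By exact Poisson intervals (95%, counting error only), young replicate 2 lay between 5.11 and 5.93 FPKM and young replicate 1 between 2.08 and 2.57 FPKM, so that split was larger than counting error.

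Greb1, an estrogen-induced gene whose protein is a cofactor of estrogen receptor alpha in human breast cancer cells, showed a similar split. It lies on chromosome 12 from 16670615 to 16800886 on the minus strand (ENSMUSG00000036523), and 736 of its exon bases overlap the antisense gene Gm48140. Whether the authors counted by strand is not given in the sources used here, so reads of these bases cannot be assigned to either gene. The level was 10.8, 9.91, 10.5 and 13.6 FPKM in the old libraries 1 to 4, against 6.36, 14.2, 10.9 and 7.08 FPKM in the young libraries 1 to 4. The young libraries again held the highest value, in replicate 2, and the 2 lowest, in replicates 1 and 4. The mean was 11.2 ± 1.65 FPKM in old and 9.63 ± 3.64 FPKM in young pituitary (SD, n = 4 each). The log2 fold change was 0.28 (standard error 0.26, 95% interval −0.33 to 0.90, adjusted p = 0.56 from limma).

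Pgr and Greb1 placed the libraries in one order within each age. From high to low, the old replicates ran 4, 1, 3, 2 and the young replicates 2, 3, 4, 1 for both genes. Of the 23497 other genes tested, 44 had the order of Pgr in both ages (0.187%), and Greb1 was one of them. Another was Nrip1, an estrogen-responsive gene that encodes a nuclear receptor corepressor and belongs to the lists given below. No other tested gene of the estrogen-responsive list was among the 44. Nrip1 had 3.44, 3.24, 3.44 and 3.62 FPKM in the old libraries 1 to 4, against 2.49, 3.77, 3.02 and 2.71 FPKM in the young libraries 1 to 4 (log2 fold change 0.21, standard error 0.14, adjusted p = 0.41 from limma). Esr1 shared the order of the old libraries but had its lowest young value in replicate 2, where Pgr, Greb1 and Nrip1 were highest. This comparison of orders was chosen after the values had been seen. Neighbours in the order can lie within counting error of each other, as young replicates 1 and 4 did for Pgr. Scaling moved these orders. Under the 3 other scalings tried, the young order of Pgr itself became 2, 3, 1, 4, with replicates 1 and 4 exchanged. With median-ratio and with upper-quartile scaling Greb1 had the same order as Pgr in both ages and Nrip1 did not, and 66 and 69 genes had the order of Pgr. With the library size taken without hormone and ribosomal RNA repeat genes, 25 genes had it, and Greb1 and Nrip1 were not among them. Those 2 genes then shared an order with each other (old replicates 4, 1, 2, 3 and young replicates 2, 3, 4, 1). Under all 3 of these scalings, young replicates 2 and 3 stayed the highest young libraries in the 3 genes.

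**Figure D2:**
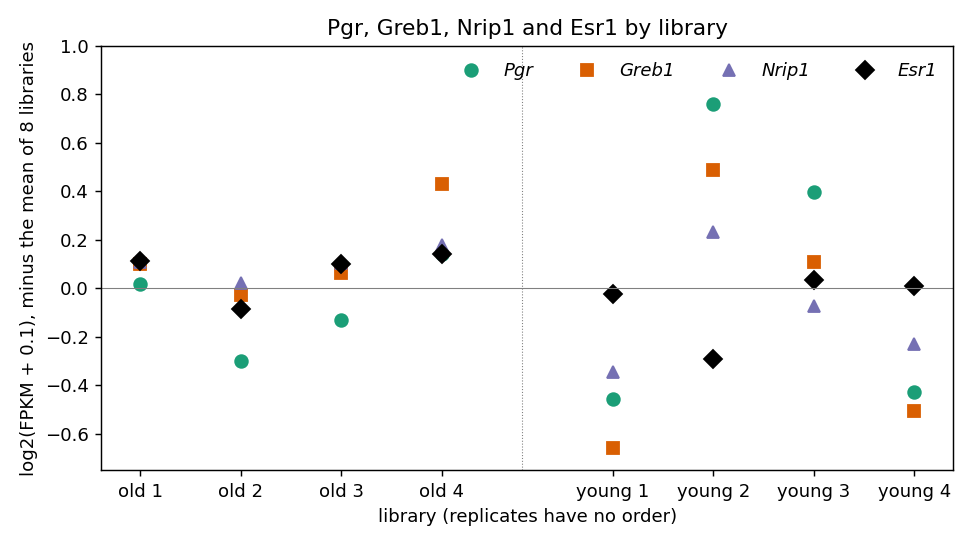
Log2(FPKM + 0.1) of Pgr, Greb1, Nrip1 and Esr1 in each library, minus the mean of the gene over the 8 libraries, with 1 symbol per gene and the 4 old libraries left of the 4 young. Pgr, Greb1 and Nrip1 are highest among the young libraries in replicates 2 and 3, and Esr1 is lowest in young replicate 2.

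The spread within an age can be given as the SD on the log2 scale. For Pgr it was 0.19 in old and 0.61 in young pituitary, a ratio of 3.19 (young over old), and 6.38% of the 14587 genes averaging 1 FPKM or more had at least that ratio. For Greb1 it was 0.20 in old and 0.54 in young pituitary, a ratio of 2.68 that 9.91% of genes reached, and the ratio was 8.15 without old replicate 4. For Nrip1 it was 0.063 in old and 0.25 in young pituitary, a ratio of 3.95 that 3.69% of genes reached. At least the young SD of Nrip1 was found in 32.3% of genes, and at least its old SD in 92.9%. For the young SD of Pgr that share was 6.12%, and for that of Greb1 7.67%. The ratio of Nrip1 therefore came with a narrow old group more than with a wide young one. This ratio was 6.15 without old replicate 2 and 2.15 without young replicate 2. The ratio of the highest to the lowest library was 1.37 in old and 2.38 in young pituitary for Pgr, and 1.38 in old and 2.23 in young pituitary for Greb1. These ratios describe 4 libraries per age and carry no test.

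Other genes differed among the same young libraries. Pomc, the precursor of corticotropin and melanotropin and a marker of corticotrophs and melanotrophs, had 2893, 2372, 3265 and 3852 FPKM in the old libraries 1 to 4, against 4173, 1668, 1483 and 3124 FPKM in the young libraries 1 to 4. Its lowest levels were therefore in the young libraries with the most Pgr. Among the old libraries, replicate 4 had the most Pomc and Pgr and replicate 2 the least. Of the other markers of these cells, Pcsk2 had 16.85, 7.66, 5.46 and 11.3 FPKM in the young libraries 1 to 4. Crhr1 (2.08, 2.92, 2.63 and 3.05 FPKM) and Tbx19 (4.85, 7.37, 6.24 and 8.17 FPKM) were instead lowest in young replicate 1. Over the 4 markers, the summed level, nearly all of it Pomc, was 2393 to 3875 FPKM in old and 1497 to 4196 FPKM in young pituitary. Of the 4, 0 were called (0 higher and 1 lower at an unadjusted p under 0.05 from limma, beside 18.0% and 3.79% of all genes). Old replicate 4, the old library with the most Pgr and Greb1, held 4.69 FPKM of oxytocin (Oxt), a transcript of the posterior lobe. The 4 posterior lobe markers summed to 1.04 to 8.97 FPKM in old and 0.447 to 0.690 FPKM in young pituitary. Of the 3 tested, 0 were called and 1 was higher at an unadjusted p under 0.05 from limma, beside 18.0% of all genes. The part of either in the levels of Pgr and Greb1 was not tested.

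To show the sequence upstream of both genes that shared an order, the 250 bases before the first start of each in RefSeq (GRCm38.p6) are printed 5′ to 3′ on the strand of the gene, at chr9:8899583-8899832 (plus strand) for Pgr and chr12:16800887-16801136 (minus strand) for Greb1. Capitals mark half-sites of the estrogen response element, GGTCA on either strand (TGACC when read on the printed one).
Pgr: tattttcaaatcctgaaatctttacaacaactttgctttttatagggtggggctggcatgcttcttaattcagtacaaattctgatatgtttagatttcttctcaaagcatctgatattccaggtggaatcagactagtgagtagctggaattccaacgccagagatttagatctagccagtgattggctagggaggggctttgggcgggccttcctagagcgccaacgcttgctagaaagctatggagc
Greb1: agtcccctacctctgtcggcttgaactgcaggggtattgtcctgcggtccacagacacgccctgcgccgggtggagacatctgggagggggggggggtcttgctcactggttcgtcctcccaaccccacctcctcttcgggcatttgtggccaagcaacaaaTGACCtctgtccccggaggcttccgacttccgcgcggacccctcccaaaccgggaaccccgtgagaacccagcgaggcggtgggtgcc
The Pgr window held no half-site, 1 GC box (GGGCGG on either strand) and 1 TATA box (TATAAA on either strand). The Greb1 window held 1 half-site, which starts 88 bases before the gene, and the window at the second Greb1 start held 2. All 7 genes matched the RefSeq table, with 12 windows in all, and none of these held a full element, here GGTCA and TGACC 3 bases apart. Among all 32851 windows of this length, 0.0639% held the full element, 35.2% a half-site, 32.7% a GC box and 12.4% a TATA box. Of the other genes, the window of Esr2 held 2 half-sites. A match is a description of these letters only, and no match says only that they are not in this window.

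Gper1, which encodes a G protein-coupled receptor of the cell membrane that binds estrogen, did not pass the test. The gene occupies chromosome 5 from 139423151 to 139427800 on the plus strand (ENSMUSG00000053647). The level was 3.72, 3.50, 4.11 and 2.66 FPKM in the old libraries 1 to 4, against 4.54, 2.57, 2.82 and 3.13 FPKM in the young libraries 1 to 4. The groups overlapped, and both the highest and the lowest library were young. The mean was 3.50 ± 0.614 FPKM in old and 3.26 ± 0.881 FPKM in young pituitary (SD, n = 4 each). The log2 fold change was 0.11 (standard error 0.21, 95% interval −0.37 to 0.59, adjusted p = 0.78 from limma). These values rest on 98 to 201 fragments per library, and most neighbouring libraries lay within counting error of each other.

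Esrrg had the largest log2 fold change of the 6 genes and was the only one whose groups did not overlap, but it missed the threshold. It encodes estrogen related receptor gamma, an orphan nuclear receptor that resembles the estrogen receptors, does not bind natural estrogens and is known for its part in genes of oxidative metabolism. It lies on chromosome 1 from 187608791 to 188214885 on the plus strand (ENSMUSG00000026610). The level was 1.95, 2.00, 1.78 and 1.54 FPKM in the old libraries 1 to 4, against 1.18, 0.932, 1.17 and 1.38 FPKM in the young libraries 1 to 4. All 4 old libraries were above all 4 young ones, as they were for 13.4% of all genes tested. The mean was 1.82 ± 0.210 FPKM in old and 1.17 ± 0.185 FPKM in young pituitary (SD, n = 4 each), a ratio of 1.56. The log2 fold change was 0.61 (standard error 0.14, 95% interval 0.28 to 0.93, adjusted p = 0.069 from limma). These values rest on 87 to 230 fragments per library, and the counting intervals of old replicate 4 (1.31 to 1.79 FPKM) and young replicate 4 (1.18 to 1.62 FPKM) overlapped.

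The call of Esrrg differed between settings. Over genes averaging 1 FPKM or more its adjusted p was 0.037 from limma, where 5.46% of all genes were called higher. With voom, which models the fragments and covered 19756 genes, its log2 fold change was 0.64 and its adjusted p was 0.017, where 5.52% of all genes were called higher. With any 1 library left out the adjusted p from limma was 0.075 to 0.16, and the log2 fold change 0.51 to 0.69. Under the 3 other scalings the adjusted p of Esrrg from limma was 0.13 to 0.14, and its log2 fold change 0.46 to 0.52. The macrophage markers also stood higher in old pituitary. Their summed level over 6 genes was 60.9 to 84.3 FPKM in old and 28.6 to 48.4 FPKM in young pituitary. Of the 6, 2 were called higher, beside 1.86% of all genes tested. They were C1qb (log2 fold change 1.06, adjusted p = 0.026 from limma) and Lyz2 (1.31, adjusted p = 0.048). With a library left out, C1qb was called in 3 and Lyz2 in 1 of the 8 fits, and the call of Lyz2 was also lost under the 3 other scalings, with a pseudocount of 0.01 and with no filter. In the other marker lists Trhr of thyrotrophs (1.79) and Jchain of plasma cells (2.84) were also called higher. Each was called in 1 of these 8 fits, and Trhr not under the 3 other scalings. Tshb, also a thyrotroph marker, was not called (0.20, adjusted p = 0.73 from limma). Called lower were Col1a1 of stromal cells (−1.55) and Gh of somatotrophs (−1.36), both in all 8 fits. Gnrhr (−1.33) and Lhb (−0.76) of gonadotrophs were also called lower, in 7 and 1 of the 8 fits. The part of these cells in the level of Esrrg was not tested.

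**Figure D3:**
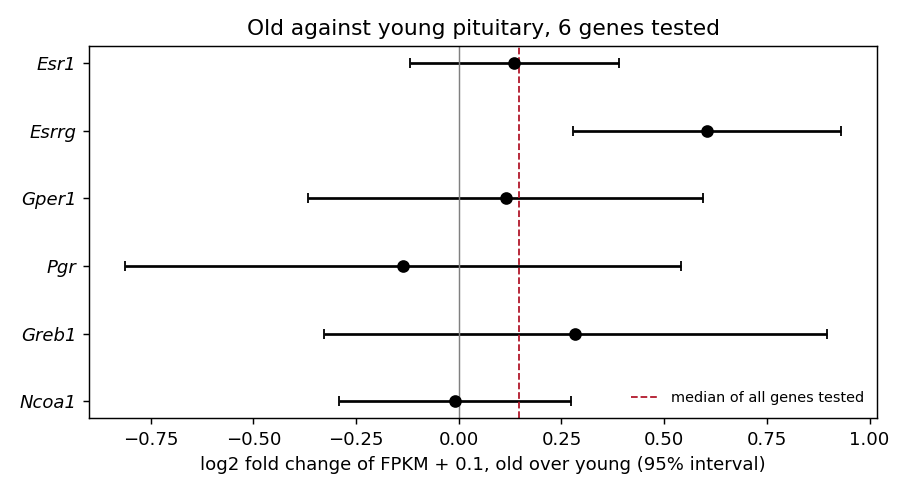
Log2 fold change of FPKM + 0.1, old over young, for the 6 genes tested (points) with the 95% interval of limma (bars), the zero line in grey and the median of all genes tested dashed. The interval of Esrrg, 0.28 to 0.93, lies above 0 and above the median of 0.15, and the other 5 intervals include both.

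Ncoa1, a coactivator of steroid receptors with histone acetyltransferase activity, had the same mean in both ages within its spread. The gene occupies chromosome 12 from 4247362 to 4477182 on the minus strand (ENSMUSG00000020647), and 68 of its exon bases overlap the antisense gene 4921501I09Rik. The level was 7.76, 11.0, 9.56 and 10.4 FPKM in the old libraries 1 to 4, against 9.59, 9.46, 9.81 and 9.72 FPKM in the young libraries 1 to 4. Old replicate 1 was the lowest library and old replicate 2 the highest, with all 4 young libraries between them. The mean was 9.67 ± 1.40 FPKM in old and 9.65 ± 0.151 FPKM in young pituitary (SD, n = 4 each). The log2 fold change was −0.01 (standard error 0.12, 95% interval −0.29 to 0.27, adjusted p = 0.98 from limma). Its ratio of log2 SDs (young over old) was 0.103, the opposite of Pgr and Greb1, and 99.9% of genes had a ratio at least that high.

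The genes whose profile was nearest to each of the 6 over the 8 libraries were found by the root mean square difference of centred log2(FPKM + 0.1), among 11938 genes averaging 1 FPKM or more, with predicted genes left out. Nearest to Esr1 were Wdr83 (0.0381), Zfp976 (0.0456) and Zmat2 (0.0518), while Esr1 itself had a root mean square of 0.131 around its mean. Nearest to Pgr were Cyfip2 (0.111), Plxna4 (0.154) and Snhg15 (0.164), against 0.396 for Pgr itself. Nearest to Greb1 were Chst8 (0.107), Pak3 (0.125) and G6pdx (0.132), against 0.378 for Greb1 itself. Nearest to Gper1 were Echdc2 (0.112), Hemk1 (0.114) and Zbed3 (0.115), against 0.274 for Gper1 itself. Nearest to Esrrg were Gpc4 (0.0847), Hdac10 (0.0886) and Amigo1 (0.0888), against 0.345 for Esrrg itself. Nearest to Ncoa1 were Ncam1 (0.0607), Scai (0.0632) and Fryl (0.0636), against 0.134 for Ncoa1 itself.

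The wider pathway was counted in lists of receptor partners and targets. Of 17 other nuclear receptor coregulators, all tested, 1 rose and 0 fell. It was Tle3, a Groucho-type corepressor, with 3.35, 3.14, 4.11 and 3.34 FPKM in the old libraries 1 to 4, against 2.56, 2.07, 2.11 and 2.21 FPKM in the young libraries 1 to 4 (log2 fold change 0.61, adjusted p = 0.048 from limma). The median of the list was 0.19, beside 0.15 over all genes, and 5 coregulators were higher and 0 lower at an unadjusted p under 0.05 from limma, where 18.0% of all genes were higher and 3.79% lower. The call of Tle3 was lost with any 1 library left out, under the 3 other scalings, with a pseudocount of 0.01 and with no filter. Of 10 steroid receptor chaperones, which hold unliganded receptors ready to bind hormone, 0 passed the test in either direction, and 0 were higher or lower at an unadjusted p under 0.05 from limma. Their median was −0.05. Hsp90ab1, a form of heat shock protein 90, had 245 to 305 FPKM in old and 226 to 324 FPKM in young pituitary, and Hspa8, a constitutive heat shock protein of the Hsp70 family, had 106 to 154 FPKM in old and 106 to 184 FPKM in young pituitary.

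Of 20 estrogen-responsive genes, 19 were tested, 0 rose and 2 fell, with a median of 0.07. The list was not split by the direction in which estrogen moves each gene, so its counts and median do not measure estrogen action. At an unadjusted p under 0.05 from limma, 5 were higher and 3 lower, beside 18.0% and 3.79% of all genes. Gnrhr, the receptor for gonadotropin-releasing hormone, had 6.68, 4.18, 4.79 and 5.63 FPKM in the old libraries 1 to 4, against 12.0, 12.4, 13.6 and 15.5 FPKM in the young libraries 1 to 4 (log2 fold change −1.33, adjusted p = 0.017 from limma). Lhb, the beta subunit of luteinising hormone, had 142, 140, 122 and 138 FPKM in the old libraries 1 to 4, against 246, 178, 236 and 270 FPKM in the young libraries 1 to 4 (log2 fold change −0.76, adjusted p = 0.044 from limma). Both genes are made in gonadotrophs, and both are also among the 4 gonadotroph markers, of which no others were called. Of those others, Fshb, also in the estrogen-responsive list, went the opposite way (log2 fold change 0.95, adjusted p = 0.30 from limma). For Nr5a1 the log2 fold change was −0.26 (adjusted p = 0.50 from limma). The call of Gnrhr was lost only without young replicate 3 among the 8 fits with a library left out, and that of Lhb was kept among them only without young replicate 2. The call of Lhb was also lost with a pseudocount of 0.01 (adjusted p = 0.052 from limma) and with no filter (adjusted p = 0.060). Neither Gnrhr nor Lhb had its highest young levels in replicates 2 and 3, where those of Pgr were. Among the young libraries, Prl and Gal had the full reverse of the order of Pgr, highest in replicate 1 and lowest in replicate 2. In the young libraries 1 to 4, Prl had 85410, 75030, 82730 and 85290 FPKM and Gal 38.4, 31.4, 32.3 and 35.1 FPKM. The old orders of Prl and Gal were not the reverse of that of Pgr. Vegfa and Fos, also of this list, had the young order of Pgr but not its old order. Prl, a target of estrogen receptor alpha in lactotrophs, had a log2 fold change of 0.01 (adjusted p = 0.97 from limma).

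Of 7 membrane progesterone receptors, 0 passed the test. At an unadjusted p under 0.05 from limma, 1 was higher and 0 lower, beside 18.0% and 3.79% of all genes. The median of the 7 receptors was 0.22. Pgrmc1 was the most abundant, with 84.5 to 104 FPKM in old and 60.3 to 82.4 FPKM in young pituitary (log2 fold change 0.39, adjusted p = 0.14 from limma), followed by Pgrmc2 with 18.7 to 20.6 FPKM in old and 18.5 to 19.5 FPKM in young pituitary. Of 5 other genes of the estrogen related receptors and their coactivators, 4 were tested and 0 passed, with a median of 0.11. At an unadjusted p under 0.05 from limma, 1 was higher and 1 lower, beside the same shares of all genes. Esrra, which encodes estrogen related receptor alpha, had 5.28 to 6.85 FPKM in old and 3.70 to 5.43 FPKM in young pituitary (log2 fold change 0.35), and Perm1, a regulator of these receptors in muscle, had 0.957 to 1.42 FPKM in old and 0.716 to 1.21 FPKM in young pituitary (log2 fold change 0.25). The 2 others tested were negative, Ppargc1a with −0.50 (mean 0.232 FPKM in old and 0.376 FPKM in young, adjusted p = 0.14 from limma) and Ppargc1b with −0.03.

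Of 21 genes of sex steroid synthesis and metabolism, 11 were tested, 1 rose and 0 fell, with a median of 0.18. At an unadjusted p under 0.05 from limma, 4 were higher and 0 lower, again beside 18.0% and 3.79% of all genes. Hsd17b11, a 17-beta-hydroxysteroid dehydrogenase of lipid droplets, had 14.2, 13.1, 12.9 and 10.3 FPKM in the old libraries 1 to 4, against 6.91, 5.60, 6.03 and 7.12 FPKM in the young libraries 1 to 4 (log2 fold change 0.96, adjusted p = 0.022 from limma). Its call was kept in 3 of the 8 fits with a library left out (those without old replicate 4, young replicate 2 or young replicate 4). Cyp19a1, which encodes the aromatase that makes estrogen, was among 4 genes of the list at 0 in all 8 libraries.

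**Figure D4:**
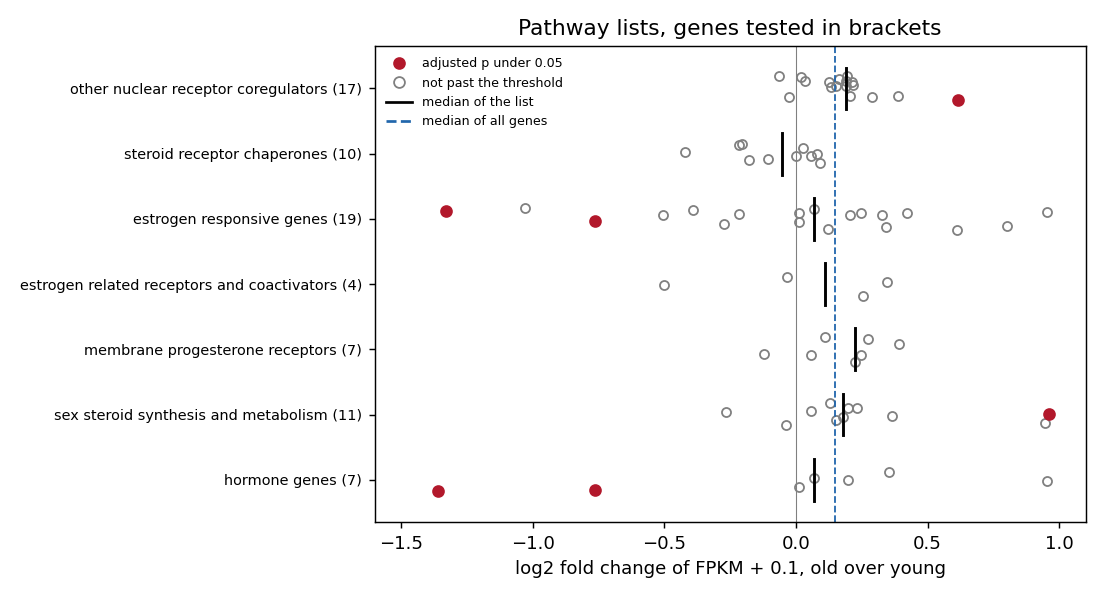
Log2 fold change of FPKM + 0.1, old over young, for each tested gene of 7 pathway lists (circles, filled where the adjusted p from limma was under 0.05), with the median of each list as a black bar and the median of all genes as a dashed line. Most circles lie near the dashed line at 0.15, with Gnrhr (−1.33) and Gh (−1.36) farthest to the left and Hsd17b11 (0.96) farthest to the right of the filled ones.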

How the data were processed

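The members and gene lists were chosen with earlier results of these data known. Alignment by the authors was with STAR (2.6.1a) to GRCm38, counting with featureCounts and computation of the FPKM they deposited with edgeR (3.28.1), as their methods and the submitters' notes state. No Ensembl release is given in the sources used here. Deposited FPKM are not counts, so limma (3.58.1, R 4.3.3) was used on log2(FPKM + 0.1), without trend or robust variances, and tested on simulated data. Fragments were computed back with GENCODE M21 exon lengths, and 92.9 to 93.7% of low values were whole within 0.01. Fragments of Ncoa1 were not whole and are not given. A count of 0 allows 0.147 to 0.199 CPM. Poisson intervals and floors cover counting error only. Python 3.11.15 with pandas 2.3.3 and scipy 1.17.1 was used beside R.

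Named genes were the 7 members, up to 4 called genes of each list by adjusted p (or the 2 most abundant where none was called), and the 3 nearest profiles. Pomc, Oxt, Cyp19a1, Xist and the Y-linked genes were named after their values were seen, as were Nrip1 and Prl. The same holds for Pcsk2, Crhr1, Tbx19, Fshb, Nr5a1, Gal, Vegfa, Fos, Tshb, Ppargc1a and Ppargc1b. The alternatives were pseudocounts of 1 and 0.01, no filter, an average of 1 FPKM or more, 3 other scalings, a mean-variance trend, voom, the replicate block and each library left out. The scalings and omissions for spread and order were added after seeing the data.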

Additional observations from a re-analysis of the deposited data

How the results depend on the processing

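Of the 6 genes tested, Greb1 kept its direction and its side of the threshold in all 18 alternatives, but its log2 fold change ran from 0.11 (without young replicate 1) to 0.49 (without young replicate 2) and was 0.13 with median-ratio and 0.14 with upper-quartile scaling. Esrrg kept its direction in all 18 and passed the threshold in 2, so that the number of members called was 1 over genes averaging 1 FPKM or more and 1 with voom, and 0 in the other alternatives. Directions turned for Esr1 (−0.015 with median-ratio and −0.0096 with upper-quartile scaling), Gper1 (−0.033 and −0.028 with these scalings), Ncoa1 (0.092 without old replicate 1) and Pgr (0.095 without young replicate 2). With 1 library left out, Ncoa1 ran from −0.073 to 0.092, Pgr from −0.31 to 0.095, Esr1 from 0.060 to 0.19 and Gper1 from 0.014 to 0.28. The number of other genes in the library order of Pgr, 44, was 66 with median-ratio scaling, 69 with upper-quartile scaling and 25 without hormone and ribosomal RNA repeat genes in the library size. The median of all genes was 0.01 with median-ratio or upper-quartile scaling and 0.06 with hormone and ribosomal RNA repeat genes left out of the library size.

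Against 436 genes higher, the number was 689 with a pseudocount of 1, 263 with no filter, 796 over genes averaging 1 FPKM or more, 206 with median-ratio and 213 with upper-quartile scaling, 216 without hormone and ribosomal RNA repeat genes in the library size, 704 with a mean-variance trend and robust variances, and 1091 with voom. Against 111 lower it was 217 with median-ratio scaling, 210 with upper-quartile scaling and 274 with voom. Leaving out 1 library gave 64 to 327 higher and 21 to 163 lower. The cause was not tested.

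The replicate numbers are shared between ages, but deviations of same-numbered libraries correlated at −0.037 to 0.037 and only old replicate 1 was most like its own number, so the numbers were not taken to pair the libraries. With the replicate block 4 genes were higher and 0 lower in limma, and Esrrg had an adjusted p of 0.22. Depth limits Gper1 (98 to 201 fragments per library) and Esrrg (87 to 230) most, and Esr2 could not be tested.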
